A study of Homo sapiens with 6 samples.

Results

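The genes described here make cholesterol and long-chain fatty acids, sense sterols or move them through the cell. They were chosen by a list of 36 gene symbols: 18 enzymes of sterol synthesis, 5 genes that control the sterol regulatory element binding proteins (SREBPs), 5 genes of sterol transport and turnover, and 8 enzymes of fatty acid synthesis. Of these, 35 matched a row among the 57820 genes of the count table through their Ensembl identifiers, and 34 were among the 17225 genes that passed the filter on low counts. ACACA, an acetyl-CoA carboxylase gene, matched no row under the identifier in the gene name table, and ABCA1 had too few counts to test. The cells were HEK293, a long-established human line of embryonic kidney origin, and had been kept for 12 h with 100 µM minocycline or for 12 h with its DMSO vehicle, both without heat shock. Minocycline is a tetracycline antibiotic, a class that binds bacterial and mitochondrial ribosomes. Total RNA of 3 biological replicates was sequenced in each group, and the total count was 17303180 to 17830320 in the minocycline libraries and 17395826 to 17835756 in the control libraries. By the labels the replicate number is also the batch, so that every batch held 1 library of each group, and all cells were of 1 line grown in serum.

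Cells build cholesterol from acetyl-CoA through mevalonate and isoprenoid units, which are joined to squalene, closed into lanosterol and trimmed to cholesterol. Fatty acids grow on acetyl-CoA and malonyl-CoA and are then elongated and desaturated. SREBP-2, the product of SREBF2, chiefly drives the sterol genes and SREBP-1, the product of SREBF1, the fatty acid genes. When membrane sterol is low, SCAP escorts both precursors from the endoplasmic reticulum to the Golgi, where proteases release the active factor, and INSIG proteins hold them back when sterol is high.

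Promoters are shown here because SREBPs act at sterol elements together with NF-Y, a factor that binds CCAAT boxes. The set holds 3 genes whose minocycline libraries all lay below the control libraries (MVD, IDI1 and INSIG1), the gene of the sterol regulator itself (SREBF2), and a late sterol enzyme that was not lower (SC5D). Each sequence runs from 250 bases before to 50 bases after a RefSeq transcript start in GRCh38.p14 and is written in the direction of the gene. Capitals mark matches on either strand to TCACNCCAC (a sterol element), CCAAT (read ATTGG on the other strand) or CACGTG (an E-box).
MVD (chr16:88663042-88663341, minus strand): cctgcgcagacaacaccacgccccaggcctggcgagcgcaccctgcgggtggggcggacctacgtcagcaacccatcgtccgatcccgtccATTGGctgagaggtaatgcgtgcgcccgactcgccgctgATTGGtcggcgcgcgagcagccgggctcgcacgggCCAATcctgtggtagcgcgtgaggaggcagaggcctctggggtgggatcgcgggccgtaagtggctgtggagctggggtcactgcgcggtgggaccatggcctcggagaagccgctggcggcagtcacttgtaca
IDI1 (chr10:1049070-1049369, minus strand): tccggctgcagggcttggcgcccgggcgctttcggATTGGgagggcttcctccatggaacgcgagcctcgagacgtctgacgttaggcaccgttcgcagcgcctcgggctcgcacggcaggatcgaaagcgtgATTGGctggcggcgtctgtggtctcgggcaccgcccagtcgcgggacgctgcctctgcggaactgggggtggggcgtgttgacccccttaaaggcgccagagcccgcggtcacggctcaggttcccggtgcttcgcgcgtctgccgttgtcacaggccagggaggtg
INSIG1 (chr7:155297628-155297927, plus strand): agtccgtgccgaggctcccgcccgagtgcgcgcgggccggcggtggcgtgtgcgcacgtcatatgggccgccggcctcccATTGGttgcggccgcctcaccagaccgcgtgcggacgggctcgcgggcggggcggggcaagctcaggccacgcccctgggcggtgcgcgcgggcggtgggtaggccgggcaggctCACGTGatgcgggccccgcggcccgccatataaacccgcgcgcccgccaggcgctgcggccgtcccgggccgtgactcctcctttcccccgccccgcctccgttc
SREBF2 (chr22:41832855-41833154, plus strand): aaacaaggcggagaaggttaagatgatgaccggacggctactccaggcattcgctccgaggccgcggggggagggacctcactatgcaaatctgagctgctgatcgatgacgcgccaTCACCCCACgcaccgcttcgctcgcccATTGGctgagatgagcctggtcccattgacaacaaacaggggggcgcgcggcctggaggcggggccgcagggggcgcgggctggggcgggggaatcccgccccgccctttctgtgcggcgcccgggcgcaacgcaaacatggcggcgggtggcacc
SC5D (chr11:121292521-121292820, plus strand): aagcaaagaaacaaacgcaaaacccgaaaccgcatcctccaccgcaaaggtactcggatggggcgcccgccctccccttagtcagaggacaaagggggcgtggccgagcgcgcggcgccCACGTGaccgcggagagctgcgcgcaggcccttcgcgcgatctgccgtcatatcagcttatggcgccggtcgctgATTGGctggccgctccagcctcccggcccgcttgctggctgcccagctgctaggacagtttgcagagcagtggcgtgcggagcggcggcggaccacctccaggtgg

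The RefSeq table held a promoter for 32 of the 36 members. A CCAAT match was present in 13 of the 15 sterol synthesis genes with a promoter in the table and in 5 of 7 fatty acid synthesis genes, against 39.7% of 27305 genes. Some genes have several annotated starts. Counted by window, CCAAT was in 15 of 20 sterol windows, in 7 of 12 fatty acid windows and in 34.6% of all 35116 windows. MVD had 3 such matches, 159, 120 and 85 bases upstream of its start, and the IDI1 window shown, 1 of 3 listed for that gene, had 2, at 215 and 117 bases upstream. TCACNCCAC was in the SREBF2 window alone among all member windows, 133 bases upstream of the start and in front of a CCAAT match at 106 bases, while 1.13% of all windows held it. The E-box letters were in 5 of the 32 members with a promoter, including INSIG1 at 55 bases and SC5D at 131 bases upstream, and in 8.77% of all genes. These are matches of letters in short windows, and no binding was measured. CCAAT was also in genes that were not lower with minocycline, among them SC5D, DHCR7 and SREBF2. A link between matches and changes was not tested.

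The cells carried the transcripts expected of the line. All 8 of the matched HEK293 markers, including VIM, PAX2 and NEFM, had over 1 CPM (counts per 1000000, scaled by TMM) in every library, and 7 of 8 hepatocyte markers and 7 of 8 blood cell markers had under 1 CPM in every library. Of 7 matched fibroblast and endothelial markers 4 exceeded 1 CPM in every library, and their summed level was 59.3 to 77.7 CPM in the minocycline libraries and 79.8 to 87.8 CPM in the control libraries. Its part in the results was not tested. A gradient between libraries crossed the groups. On the first principal component, which held 52.1% of the variance of the 5000 most variable genes, the minocycline libraries lay at -12.7, -27.0 and 3.60 and the control libraries at -29.2, 26.3 and 39.0, so that control replicate 1 lay beyond every minocycline library. Genes whose symbols begin with RPL or RPS moved with it, at 8.32%, 7.33% and 10.8% of counts in the minocycline libraries and 7.39%, 11.0% and 12.2% in the control libraries. For that reason the members with the clearest differences are given with and without control replicate 1.

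No member passed the test over all genes. With edgeR's quasi-likelihood test and a Benjamini-Hochberg adjusted p under 0.05, 0 of 34 members were called lower (0.0% of all genes tested) and 0 were called higher (0.0522% of all genes tested). At an unadjusted p under 0.05, 7 members were lower and 0 were higher, against 1.97% and 2.72% of all genes. All 7 were sterol enzymes, namely ACAT2, MVK, MVD, IDI1, FDPS, FDFT1 and LSS. DESeq2 called 1 member, IDI1, as lower (0.0116% of all genes), and limma-voom called 0. In 7 members all 3 minocycline libraries lay below all 3 control libraries, and in 2 they lay above, arrangements that 3.56% and 5.74% of all genes tested showed. Without control replicate 1, 9 of 34 members were called lower and 4 were called higher, where 8.34% and 9.52% of all genes were called. With any other library left out, no member passed, and the lowest adjusted p of a member was 0.621. In simulated data the main fit recovered 10.4% of 1.5-fold changes, so a missed threshold is no sign of an unchanged level.

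The 18 sterol synthesis enzymes had a median log2 fold change of -0.30, and 14 of them had a lower fitted level with minocycline. Across all 17225 genes the median was 0.01, and 47.9% were lower. Within batches 1, 2 and 3 the median of the sterol enzymes was -0.19, -0.25 and -0.48. In 7 of the 18 the minocycline library was the lower one in every batch, and in 0 of 18 the higher one, against 10.1% and 13.3% of all genes tested. The values were not even along the pathway. The 8 enzymes from acetyl-CoA to squalene all had a lower fitted level (median -0.40, range -0.67 to -0.27), and 6 of the 7 members with an unadjusted p under 0.05 were among them. From squalene onward 6 of 10 enzymes were lower and 4 higher (median -0.09, range -0.33 to 0.38). Within batches 1, 2 and 3 the median was -0.13, -0.56 and -0.54 up to squalene and -0.22, -0.04 and 0.05 from squalene onward. In batch 1 the order of the stretches was thus turned, with 5 of 8 enzymes lower before squalene and 9 of 10 after it. This cut at squalene follows the biochemistry but was made after the values had been seen, and the difference between both stretches was not tested.

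**Figure D1:**
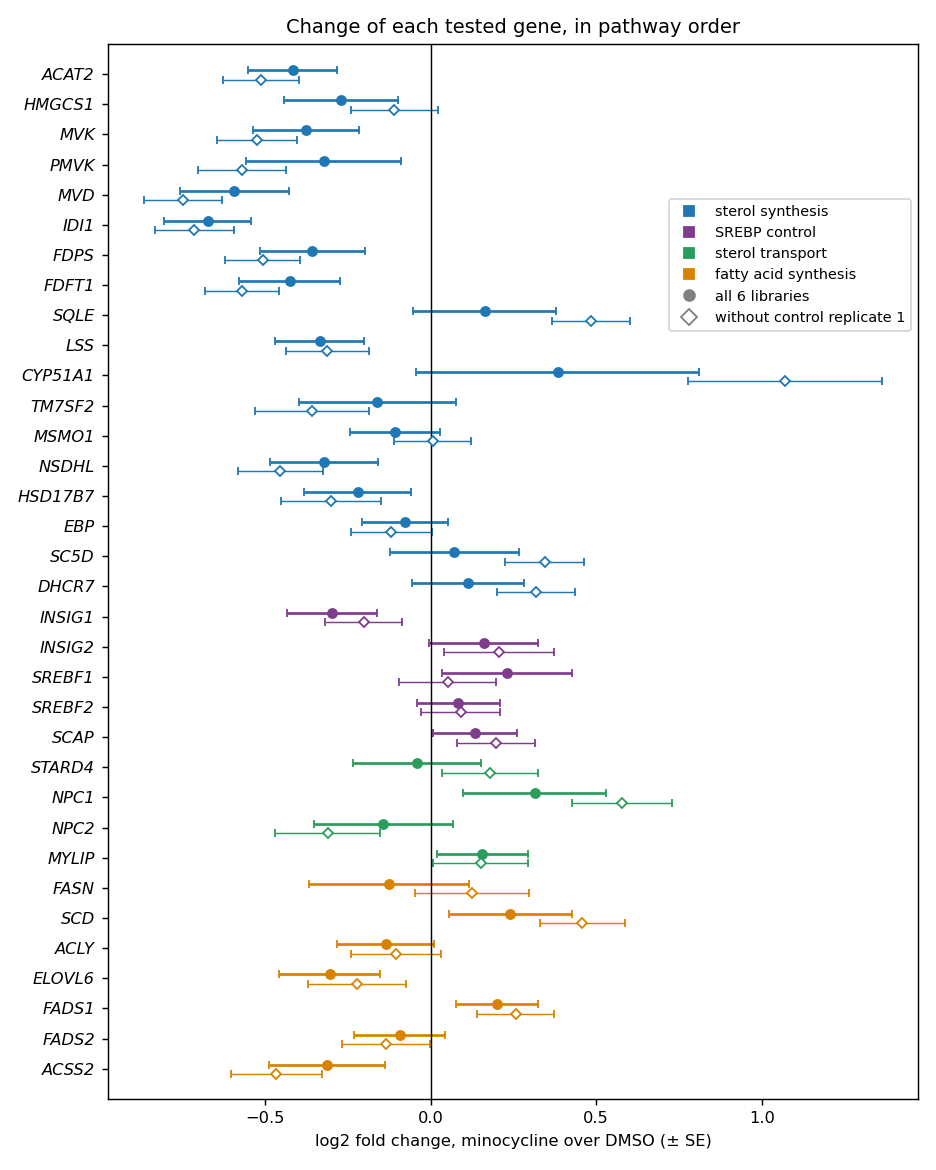
Fitted log2 fold change (x axis, minocycline over DMSO, bars are SE) of the 34 tested genes in pathway order from top to bottom. Filled circles use all 6 libraries and open diamonds leave out control replicate 1. The 8 genes from ACAT2 to FDFT1 lie left of 0 in both, while SQLE, CYP51A1, SC5D and DHCR7 lie right of it.

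IDI1, the isomerase that interconverts isopentenyl and dimethylallyl diphosphate, had the lowest fitted log2 fold change and the smallest p of the members. It had 177, 202 and 220 CPM in the minocycline libraries, against 301, 326 and 329 CPM in the control libraries. The highest minocycline library thus lay well under the lowest control library. In RNA of a whole culture, fewer cells that carry a transcript and less of it per cell cannot be told apart. The log2 fold change was -0.67 ± 0.13 (SE), a change of -37.3%, which missed the threshold (adjusted p = 0.254). It was -0.71 ± 0.12 without control replicate 1, where it passed (adjusted p = 0.00225), and -0.77, -0.69 and -0.58 within batches 1, 2 and 3. IDI1 passed in 5 of 17 alternatives, among them DESeq2 (adjusted p = 0.000912, the lowest of a range up to 1.00), and its fold change stayed between -0.76 and -0.59 in all 17. In GRCh37 the gene spans positions 1085092 to 1095059 of chromosome 10 and is read from the minus strand. The antisense RNA gene IDI2-AS1 shares 6274 bases with it on the other strand, and whether the counting used strand is not given in the sources used here.

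MVD, which decarboxylates mevalonate diphosphate in the step before IDI1, came next in size. Its minocycline libraries had 74.5, 65.6 and 76.2 CPM and its control libraries 84.3, 118 and 124 CPM. The groups did not overlap, and control replicate 1 was the control nearest to the minocycline libraries. The log2 fold change was -0.59 ± 0.16 with all libraries (adjusted p = 0.820 with edgeR) and -0.75 ± 0.12 without control replicate 1 (adjusted p = 0.00161). Within the batches it was -0.18, -0.84 and -0.71.

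Acetyl-CoA enters the pathway through ACAT2, the cytosolic acetoacetyl-CoA thiolase. It had 170, 182 and 191 CPM in the minocycline libraries, against 209, 246 and 271 CPM in the control libraries, again with no overlap. Its log2 fold change of -0.42 ± 0.14 had an adjusted p of 0.820 and became -0.51 ± 0.11 without control replicate 1 (adjusted p = 0.00862). ACAT2 shares 615 bases with TCP1 and 485 bases with SOD2 on the other strand of chromosome 6. FDFT1, squalene synthase, which joins farnesyl units and commits the pathway to sterols, was lower in the same way. Its minocycline libraries had 223, 219 and 222 CPM, a spread of 1.77 CPM (SD, n = 3), and its control libraries had 236, 315 and 342 CPM. All minocycline libraries were below the lowest control library, though not by much. The log2 fold change was -0.43 ± 0.15 (adjusted p = 0.820), and -0.57 ± 0.11 without control replicate 1 (adjusted p = 0.00479).

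HMGCS1, which condenses acetoacetyl-CoA with acetyl-CoA to HMG-CoA, overlapped between groups. It had 633, 775 and 632 CPM with minocycline and 994, 762 and 705 CPM in controls. Here control replicate 1 was the highest library of all, and without it the log2 fold change shrank to -0.11 ± 0.13 (adjusted p = 0.596), against -0.27 ± 0.17 with all libraries (adjusted p = 0.820). HMGCS1 passed in 1 alternative, with a surrogate variable in the model (log2 fold change -0.43, adjusted p = 0.0349), where 0.0464% of all genes were called lower. The kinases that follow it showed the opposite pattern across controls. MVK, mevalonate kinase, had 45.8, 41.3 and 44.7 CPM in minocycline libraries and 44.9, 62.9 and 63.5 CPM in control libraries. PMVK, phosphomevalonate kinase, had 33.4, 30.2 and 34.1 CPM in minocycline libraries, against 25.7, 44.9 and 51.7 CPM in control libraries. FDPS, which builds farnesyl diphosphate, had 129, 118 and 130 CPM with minocycline and 126, 172 and 185 CPM in controls. In all 3 of these genes control replicate 1 lay among or below the minocycline libraries while the other controls lay above them. Their log2 fold changes were -0.38 ± 0.16, -0.32 ± 0.23 and -0.36 ± 0.16 with all libraries (adjusted p = 0.820 for each), and -0.52 ± 0.12, -0.57 ± 0.13 and -0.51 ± 0.11 without control replicate 1 (adjusted p = 0.0100, 0.0105 and 0.00868). Within batch 1 they were 0.03, 0.38 and 0.03, so the lower level was seen in batches 2 and 3 and not in batch 1. The control of batch 1 is control replicate 1, so both comparisons rest on that same library.

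**Figure D2:**
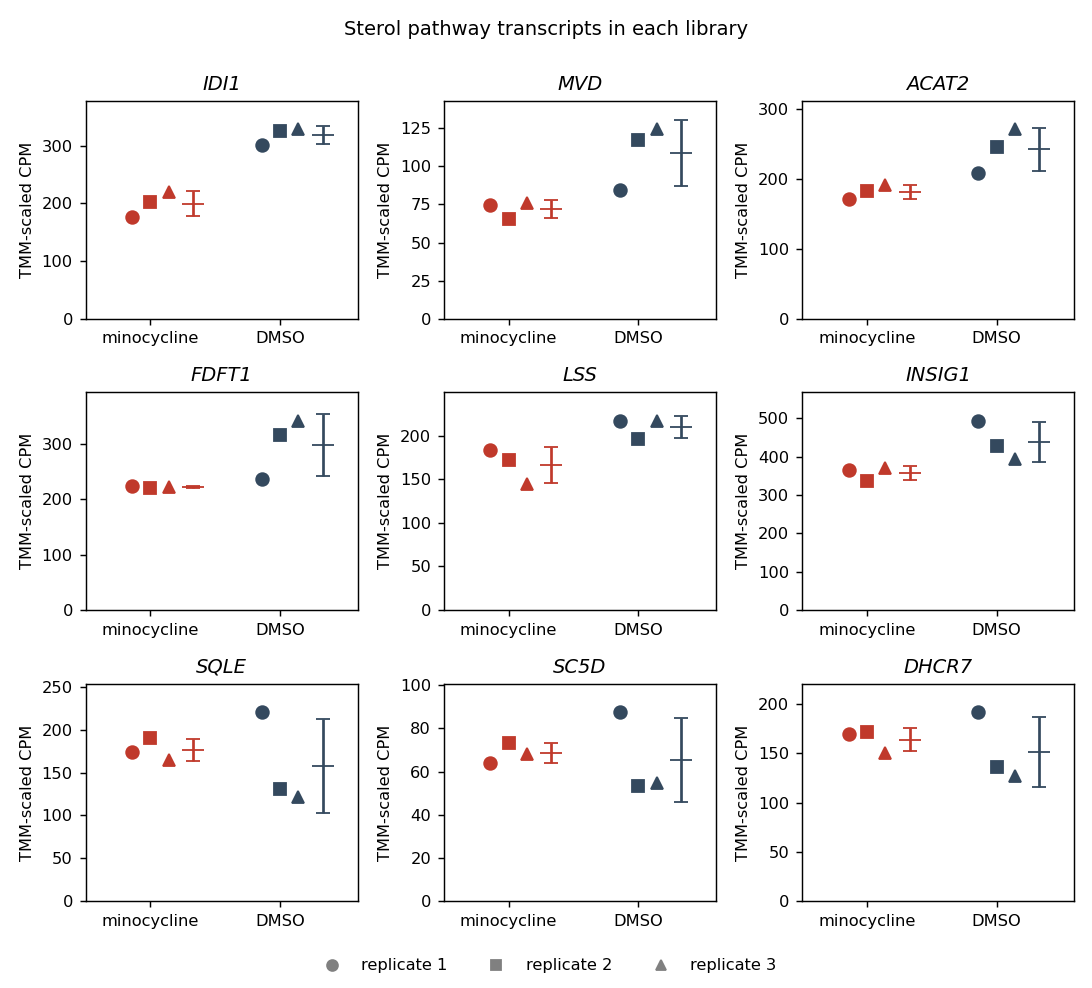
TMM-scaled CPM of 9 sterol pathway genes in each library (y axes start at 0), minocycline left and DMSO right, with 1 symbol per replicate number and the mean ± SD beside it. In IDI1, MVD, ACAT2, FDFT1, LSS and INSIG1 the groups do not overlap, and in SQLE, SC5D and DHCR7 control replicate 1 stands above both other controls and all minocycline libraries.

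Past squalene the enzymes diverged. SQLE, squalene epoxidase and a rate-limiting step, had 174, 191 and 165 CPM in the minocycline libraries and 221, 131 and 122 CPM in the control libraries. Control replicate 1 was 1.75 times the mean of the other controls, and the minocycline libraries lay in between. With all libraries the log2 fold change was 0.16 ± 0.22 (adjusted p = 0.867), and without control replicate 1 it was 0.48 ± 0.12 and passed (adjusted p = 0.0128). It was -0.34 in batch 1 and 0.54 and 0.44 in batches 2 and 3. SC5D and DHCR7, the desaturase and the reductase that act near the end of the pathway, shared this arrangement. SC5D had 64.1, 73.2 and 68.2 CPM with minocycline, against 87.6, 53.2 and 54.7 CPM in controls. DHCR7 had 170, 172 and 150 CPM with minocycline, against 192, 136 and 127 CPM in controls. Their log2 fold changes were 0.07 ± 0.20 and 0.11 ± 0.17 with all libraries (adjusted p = 0.933 and 0.885) and 0.34 ± 0.12 and 0.32 ± 0.12 without control replicate 1 (adjusted p = 0.0573 and 0.0677). The direction in these 3 genes therefore rested on which control libraries were used.

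LSS, lanosterol synthase, which closes the sterol rings, did not follow them. It had 184, 171 and 144 CPM in the minocycline libraries and 216, 196 and 217 CPM in the control libraries, with no overlap. Its log2 fold change of -0.33 ± 0.13 (adjusted p = 0.820) was nearly the same without control replicate 1, at -0.31 ± 0.13 (adjusted p = 0.0912), and it was -0.24, -0.19 and -0.59 within the batches. NSDHL, a dehydrogenase that removes methyl groups from lanosterol, had 46.4, 47.9 and 50.6 CPM in minocycline libraries and 48.9, 58.6 and 73.7 CPM in control libraries. The groups overlapped, and its log2 fold change was -0.32 ± 0.16 (adjusted p = 0.820), and -0.45 ± 0.13 without control replicate 1 (adjusted p = 0.0252). CYP51A1, the lanosterol demethylase, was counted at 6.72, 7.29 and 3.94 CPM with minocycline and 7.99, 3.46 and 2.24 CPM in controls. Per kilobase of exon this was 1.43 CPM with minocycline and 1.09 CPM in controls, where LSS had 23.0 and 29.0 CPM per kb. Its annotated span shares 25687 bases with AKAP9 on the other strand and 22645 bases with another annotated protein-coding gene on its own strand. Neither the strand setting nor the annotation used for counting is given, so its level is uncertain. The log2 fold change of CYP51A1 was 0.38 ± 0.43 (adjusted p = 0.846), and 1.07 ± 0.29 without control replicate 1 (adjusted p = 0.0216). The remaining 4 enzymes, TM7SF2, MSMO1, HSD17B7 and EBP, overlapped between groups, had log2 fold changes of -0.22 to -0.08 and passed in no alternative. EBP shares 6911 bases with another protein-coding gene on its own strand in the annotation used here. Whether the annotation used for counting held that gene is not known, so the level of EBP is uncertain too.

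Of the genes that control SREBPs, INSIG1 differed most. INSIG1, which retains SCAP in the endoplasmic reticulum and is itself a classic SREBP target, had 365, 335 and 371 CPM in the minocycline libraries. In the control libraries it had 494, 428 and 393 CPM. All control libraries were above all minocycline libraries, although the gap was small. The log2 fold change was -0.30 ± 0.14 (adjusted p = 0.820), and -0.20 ± 0.12 without control replicate 1 (adjusted p = 0.240). It was -0.44, -0.35 and -0.08 within the batches, and INSIG1 passed in no alternative. Its relative INSIG2 had 14.6, 14.7 and 18.5 CPM with minocycline and 15.2, 14.7 and 12.9 CPM in controls, a log2 fold change of 0.16 ± 0.17 (adjusted p = 0.841).

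The regulators themselves overlapped between the groups. SREBF2 had 383, 347 and 318 CPM in minocycline libraries, against 333, 327 and 330 CPM in control libraries, and its log2 fold change was 0.08 ± 0.13 (adjusted p = 0.884). SREBF1 had 31.4, 25.1 and 30.5 CPM with minocycline, against 18.2, 29.0 and 27.0 CPM in controls (0.23 ± 0.20, adjusted p = 0.828). SCAP had 166, 156 and 141 CPM with minocycline, against 153, 130 and 139 CPM in controls (0.13 ± 0.13, adjusted p = 0.833). Their log2 fold changes stayed above 0 in all 17 alternatives, at 0.01 to 0.16 for SREBF2, 0.05 to 0.46 for SREBF1 and 0.07 to 0.20 for SCAP, and none of these passed. Processing of the SREBP proteins was not measured by these libraries.

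Sterol transport and turnover showed no shared direction. NPC1, which exports cholesterol from lysosomes, had 67.1, 69.1 and 51.5 CPM in the minocycline libraries, against 67.1, 46.7 and 37.2 CPM in the control libraries. Its log2 fold change was 0.31 ± 0.22 (adjusted p = 0.820), and 0.58 ± 0.15 without control replicate 1 (adjusted p = 0.0175). The annotated span of NPC1 shares 25639 bases with the protein-coding gene RMC1 on the other strand, so its level is uncertain. NPC2, the lysosomal partner of NPC1, leaned the other way, at -0.14 ± 0.21 (adjusted p = 0.883). MYLIP, the ligase IDOL that marks lipoprotein receptors for degradation, had 24.0, 22.9 and 21.9 CPM with minocycline and 20.5, 19.7 and 21.6 CPM in controls. These groups were separate by a narrow margin (0.16 ± 0.14, adjusted p = 0.830). STARD4, a cytosolic sterol carrier, had a log2 fold change of -0.04 ± 0.19 (adjusted p = 0.962). ABCA1, the cholesterol efflux pump induced by oxysterols, had 1, 8 and 0 counts in minocycline libraries and 4, 6 and 4 counts in control libraries, too few to compare.

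The 7 measured fatty acid synthesis enzymes had a median log2 fold change of -0.13, with 2 higher and 5 lower. Their median within batches 1, 2 and 3 was -0.02, 0.14 and -0.22, so the sign differed between batches. FASN, fatty acid synthase, had 1684, 1819 and 1122 CPM in the minocycline libraries and 2219, 1392 and 1434 CPM in the control libraries. It was high in control replicate 1 and low in minocycline replicate 3, with a log2 fold change of -0.13 ± 0.24 (adjusted p = 0.905), and 0.13 ± 0.17 without control replicate 1 (adjusted p = 0.649). ACLY, which makes cytosolic acetyl-CoA from citrate, had 728, 797 and 617 CPM with minocycline and 820, 724 and 811 CPM in controls (-0.14 ± 0.15, adjusted p = 0.845). ACSS2, which makes acetyl-CoA from acetate, had 25.7, 26.3 and 28.8 CPM with minocycline and 26.0, 34.4 and 40.0 CPM in controls. Its log2 fold change was -0.31 ± 0.18 (adjusted p = 0.820), and -0.47 ± 0.14 without control replicate 1 (adjusted p = 0.0290).

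Among the enzymes that modify fatty acids, directions were mixed. SCD, the delta-9 desaturase of stearate, had 288, 273 and 224 CPM in minocycline libraries, against 284, 198 and 182 CPM in control libraries. SCD showed a log2 fold change of 0.24 ± 0.19 (adjusted p = 0.825), and 0.46 ± 0.13 without control replicate 1 (adjusted p = 0.0235). FADS1, a desaturase of polyunsaturated fatty acids, had 138, 120 and 122 CPM with minocycline and 119, 107 and 105 CPM in controls. Its groups were separate by a narrow margin, and it showed 0.20 ± 0.12 on the log2 scale (adjusted p = 0.820). FADS2, its neighbour, showed -0.09 ± 0.14 (adjusted p = 0.883). The spans of both genes, introns included, share 29692 bases on opposite strands, so their counts may not be separate. FADS2 also shares 4259 bases with the protein-coding gene FEN1 on its own strand. ELOVL6, which extends palmitate to stearate, had 16.3, 19.2 and 18.8 CPM with minocycline and 24.9, 21.9 and 20.3 CPM in controls. All minocycline libraries were below all controls there, and the log2 fold change was -0.31 ± 0.15 (adjusted p = 0.820).

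Set side by side, the sterol enzymes had a median log2 fold change 0.17 lower than the fatty acid enzymes. The difference, sterol minus fatty acid, was -0.17 with all libraries, -0.17, -0.39 and -0.27 within batches 1, 2 and 3, and -0.23 without control replicate 1. It shrank to -0.06 without control replicate 3 or minocycline replicate 1, and to -0.05 with a surrogate variable. Without control replicate 2 it was -0.088, without minocycline replicate 2 -0.085 and without minocycline replicate 3 -0.258. Since the members were listed with earlier results known and share their libraries, this difference is given without a test. Library by library, the enzymes up to squalene had a median level of -0.38, -0.43 and -0.35 (log2, relative to the mean of the controls) in the minocycline libraries, against -0.32, 0.11 and 0.19 in the control libraries. For fatty acid synthesis the medians were 0.04, 0.03 and -0.19 in minocycline libraries and 0.11, -0.05 and -0.06 in control libraries. Control replicate 1 lay near all 3 minocycline libraries for the early sterol enzymes, and nearer to minocycline replicates 1 and 2 than to the other controls for the fatty acid enzymes.

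**Figure D3:**
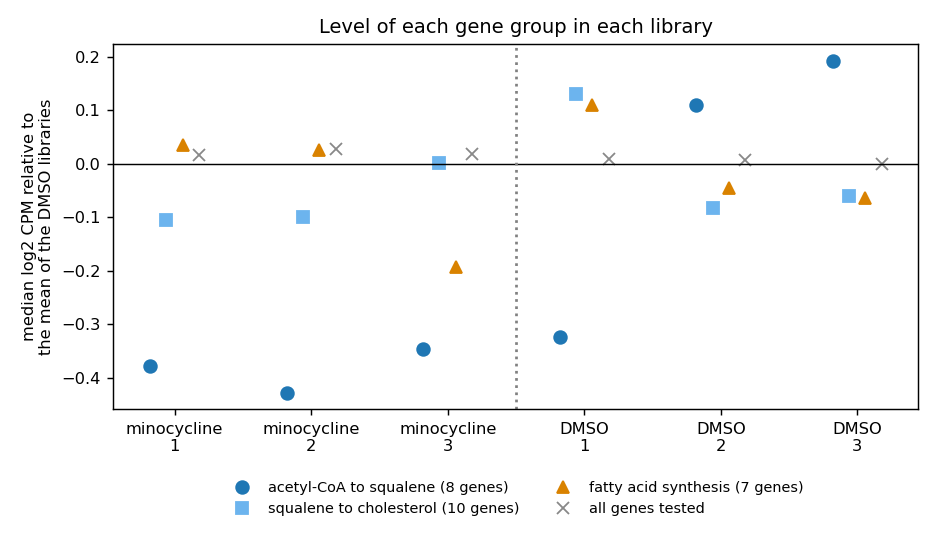
Median log2 CPM of each gene group relative to the mean of the DMSO libraries (y axis) in each library (x axis), minocycline left of DMSO. For the enzymes from acetyl-CoA to squalene 2 DMSO libraries lie above 0, and the 3 minocycline libraries lie between -0.43 and -0.35 beside DMSO replicate 1 at -0.32. All genes tested lie at or near 0 in each library.

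Levels between genes were compared per kilobase of annotated exon. In both groups FASN was the most abundant member, at 165 CPM per kb with minocycline and 180 CPM per kb in controls, followed by ACLY at 137 and 151 CPM per kb. HMGCS1 and INSIG1 came next, at 103 and 97.8 CPM per kb with minocycline and 124 and 120 CPM per kb in controls. IDI1 stood at 46.5 CPM per kb with minocycline and 74.2 CPM per kb in controls. SREBF2 exceeded SREBF1 per length in both groups, at 43.4 against 3.52 CPM per kb with minocycline and at 40.9 against 3.00 CPM per kb in controls. Total exon length can differ from that of the transcripts in the cell, so close neighbours in this order should not be ranked.

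**Figure D4:**
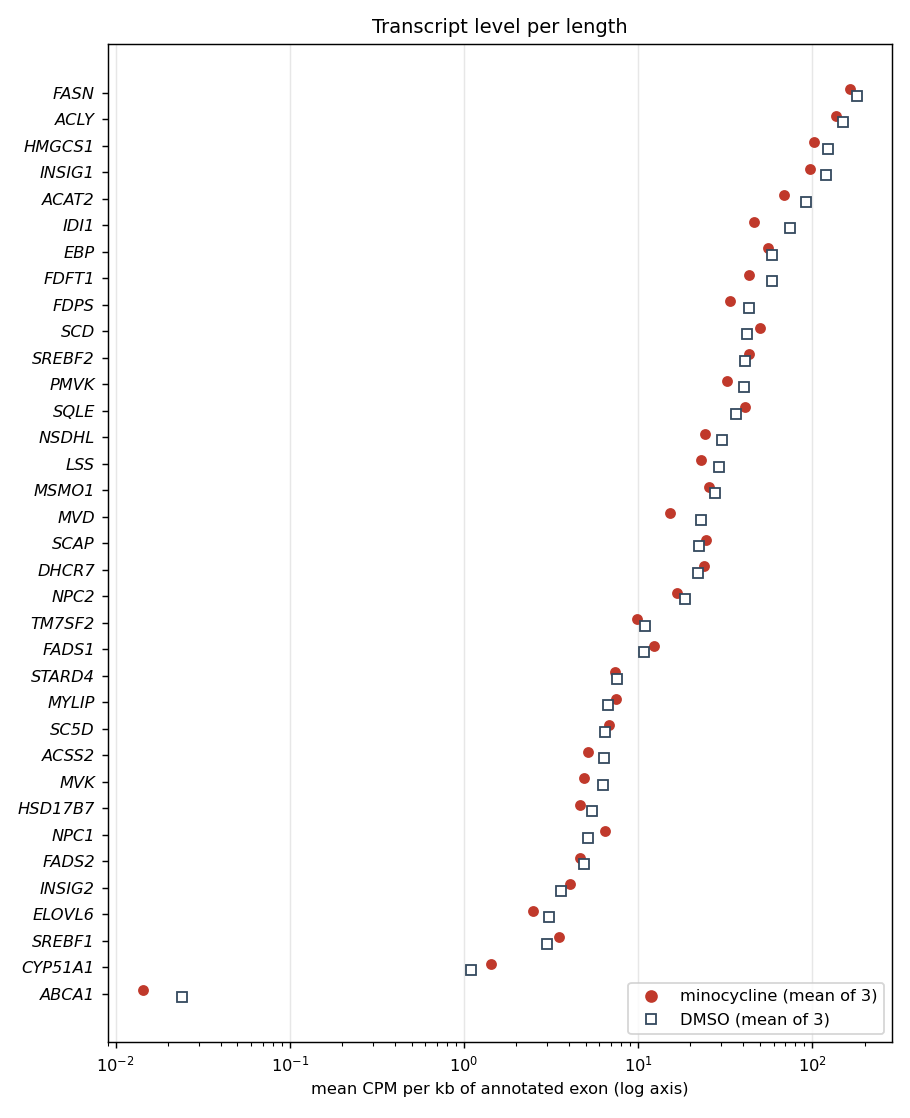
Mean TMM-scaled CPM per kb of annotated exon (log x axis) of the 35 matched genes, with filled red circles for minocycline (mean of 3) and open squares for DMSO (mean of 3). FASN is at the top with 165 and 180 CPM per kb, and ABCA1 is at the bottom with 0.0144 and 0.0240 CPM per kb.

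The wider pathway was described with lists of further genes. In the isoprenoid branch, which turns farnesyl and geranyl units into dolichol, ubiquinone and protein anchors, 11 of 14 genes were higher (median log2 fold change 0.06). RCE1, a protease of prenylated proteins, had the smallest p of that list at 0.33 ± 0.14 (adjusted p = 0.820), before DHDDS at -0.18 ± 0.13. Of 12 genes that process or degrade the SREBP machinery 9 were higher (median 0.18), led by MBTPS2, the site-2 protease of SREBPs, at 0.76 ± 0.30 (adjusted p = 0.820). MBTPS2 had 38.1, 38.9 and 31.3 CPM with minocycline and 33.7, 15.5 and 14.6 CPM in controls. Again control replicate 1 lay among the minocycline libraries, and without it the log2 fold change of MBTPS2 was 1.26 (adjusted p = 0.000251). ERLIN2 and ERLIN1, scaffold proteins of the endoplasmic reticulum, showed 0.49 ± 0.25 and 0.40 ± 0.21 with all libraries, and 0.87 and 0.69 without control replicate 1, where both passed (adjusted p = 0.00199 and 0.00610). The median of these 12 genes was 0.33 without that library and 0.02 within batch 1, where 6 of 12 were lower.

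Cholesterol handling genes leaned higher, with 14 of 19 tested above 0 and a median of 0.20. VLDLR, a lipoprotein receptor, had 16.3, 17.0 and 15.8 CPM in minocycline libraries, against 12.8, 6.69 and 6.29 CPM in control libraries. The groups were separate, and VLDLR showed 0.93 ± 0.26 with all libraries (adjusted p = 0.820) and passed without control replicate 1 (1.34, adjusted p = 0.000330). LIPA, the lysosomal acid lipase, showed 0.50 ± 0.19 and SOAT1, which esterifies cholesterol, 0.47 ± 0.25. Without control replicate 1 they showed 0.70 and 0.86 and passed (adjusted p = 0.00785 and 0.00240). In fatty acid extension and activation 19 of 24 genes were higher (median 0.18), among them ACSL3 at 0.48 ± 0.22 and ELOVL5 at 0.42 ± 0.19, whereas SLC25A1, the mitochondrial citrate carrier, showed -0.48 ± 0.21. This list turned in batch 1, where 13 of 24 genes were lower (median -0.02), and its median was 0.34 without control replicate 1. There ACSL3 showed 0.76, ELOVL5 0.70 and SLC25A1 -0.70, and each passed (adjusted p = 0.00316, 0.00207 and 0.00316). Genes of fatty acid oxidation were lower in 15 of 17 cases (median -0.11), with ACADS at -0.37 ± 0.20, ECHS1 at -0.24 ± 0.17 and ETFB at -0.31 ± 0.24. Within batch 1 only 4 of 17 were lower (median 0.14). Without control replicate 1 the median was -0.23, and ACADS (-0.57), ECHS1 (-0.42) and ETFB (-0.56) passed (adjusted p = 0.0112, 0.0229 and 0.0136). Glycerolipid genes were evenly divided, with 8 higher and 7 lower (median 0.05, and 0.14 without control replicate 1). Their smallest p values belonged to PLIN3 (-0.46 ± 0.16), PNPLA2 (-0.31 ± 0.16) and AGPAT2 (-0.30 ± 0.17). Without control replicate 1 these showed -0.59, -0.47 and -0.45 and passed (adjusted p = 0.00777, 0.0129 and 0.0248). With all libraries no gene of these 6 lists passed over all genes (adjusted p of at least 0.820 for each named). Without control replicate 1, 9.52% of all genes were called higher and 8.34% lower. Calls there were 1 higher and 0 lower of 14 isoprenoid genes, 4 and 1 of 12 processing genes and 6 and 2 of 24 extension genes. They were 4 and 1 of 19 handling genes, 0 and 3 of 17 oxidation genes and 1 and 3 of 15 glycerolipid genes. The named genes were picked by p in these same libraries, so their passing is no separate support.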

How the data were processed

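Per the labels' protocols, total RNA of HEK293 cells was column-purified, treated with DNase and sequenced as paired-end Illumina libraries from a NEBNext Ultra II RNA kit. The authors deposited whole-number counts per gene for 57820 versioned Ensembl identifiers without normalization. Per the submitters' processing notes the build was hg19. The aligner, counting program, annotation and strand setting are not given in the sources used here. Symbols came from a gene name table (55538 identifiers matched, holding 99.1% of counts). Gene positions and exon lengths (the union of annotated exons) came from a GENCODE annotation on GRCh37, which shares coordinates with hg19, and promoter sequences from RefSeq (GRCh38.p14). Overlaps between genes were taken over whole spans, introns included. Long noncoding RNA genes on the other strand also shared 4641 bases with FDFT1, 5096 and 801 with LSS and 3804 with FDPS. For HMGCS1 this was 3239 bases and for DHCR7 3596 bases. Further members had overlaps too, and their effect on the counts was not tested.

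Genes were filtered with filterByExpr, scaled with TMM, and tested as minocycline over control with edgeR 4.0.16 (glmQLFit and glmQLFTest, R 4.3.3) across all 17225 genes that passed the filter. A gene was called at a Benjamini-Hochberg adjusted p under 0.05. The standard error was the size of the log2 fold change divided by the square root of F. Alternatives were other scalings and filters, DESeq2 1.42.0, limma-voom (limma 3.58.1), the replicate block, a length and GC correction (GC of the longest transcript, splines with 4 degrees of freedom), 1 surrogate variable (sva 3.50.0) and each library left out. The labels give replicate numbers as batches, which pairs same-numbered libraries. Their deviations from the group means correlated at -0.05, -0.29 and 0.30 across genes. The highest correlation, 0.50, was between control replicate 1 and minocycline replicate 2, which differ in number. The fit was tested on simulated data with 200 changed genes. It recovered 10.4% of 1.5-fold, 74.6% of 2-fold and 98.5% of 4-fold changes, and 5.43% of its calls were unchanged genes. Changes near 1.5-fold would thus mostly be missed. Within groups, pairs of libraries gave chi-square values of at least 5.80 per degree of freedom, so none was a repeat. With 3 libraries a group, p-values set the group difference against the spread between these replicates. The spread of each gene was estimated with help from the other genes.

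Members and lists were chosen with earlier results of these data known. A member is given library by library where its unadjusted p was under 0.05, where it passed in any alternative or where the groups did not overlap. SREBP regulators are always given, with the 3 smallest p of each further list, of which 1 gene is not reported here.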

Additional observations from a re-analysis of the deposited data

How the results depend on the processing

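Calls depended strongly on the settings, and the fold changes of some members turned sign with them. Over all genes, 9 higher and 0 lower genes were called (340 lower at an unadjusted p under 0.05), against 75 and 19 without a filter on low counts, 48 and 2 with DESeq2, 24 and 0 with the length and GC correction, 30 and 2 with that correction and the replicate block, and 83 and 8 with 1 surrogate variable. The replicate block alone called 1 lower gene. With single libraries left out, 1 to 1681 genes were called higher and 0 to 1473 lower, and the highest counts of both came without control replicate 1. The cause was not tested.

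Members called lower numbered 1 (IDI1) without a filter, with DESeq2 and with the correction and block, 2 (IDI1 and HMGCS1) with 1 surrogate variable, and 0 to 9 with libraries left out. Members called higher numbered 0 to 4 with libraries left out. Every call among the leave-one-out fits came without control replicate 1. The replicate block called 0 members.

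The sterol median ran from -0.33 to -0.16 over 17 alternatives and the fatty acid median from -0.22 to -0.05. Library size scaling gave 0.204 for SREBP control and 0.123 for sterol transport, which was 0.034 to 0.165 with libraries left out. The difference between the branches was -0.046 with 1 surrogate variable and -0.258 to -0.061 with libraries left out.

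Signs turned with 1 surrogate variable for PMVK (0.037), SQLE (-0.056), CYP51A1 (-0.017), TM7SF2 (0.150), SC5D (-0.110), DHCR7 (-0.056) and NPC2 (0.117), with the length and GC correction for SC5D (-0.049, and -0.044 with the block), and with library size scaling for STARD4 (0.016). With single libraries left out log2 fold changes spanned -0.002 to 0.483 for SQLE, -0.367 to 0.003 for TM7SF2, -0.201 to 0.005 for MSMO1, -0.055 to 0.344 for SC5D, -0.011 to 0.318 for DHCR7, -0.231 to 0.179 for STARD4 and -0.261 to 0.126 for FASN. Of these values only that of SQLE without control replicate 1 passed the test. The other 540 of 578 member values kept their sign and side of the threshold, and 18 passed it with the same sign. CYP51A1 and ABCA1 had the lowest counts of the matched members, and the reason was not tested.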
